A study of Mus musculus with 3 samples.

Results

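The transcripts examined here encode the NF-kB transcription factor subunits, inhibitors of NF-kB and ubiquitin enzymes of the pathway. The cells were ST2, a stromal cell line from mouse bone marrow that is able to form osteoblasts and adipocytes. The members were chosen by name: the subunit genes Rela, Rel, Relb, Nfkb1 and Nfkb2, the inhibitor genes Nfkbia, Nfkbib and Nfkbie, and Tnfaip3 and Birc3, which encode ubiquitin enzymes of the pathway. All 10 names were found, each on 1 of the 51826 rows of the deposited table, and all 10 reached 1 FPKM (fragments scaled to transcript length and to the library's mapped total) in every library. Control cells carried empty vector together with control siRNA. For NELL2 overexpression the vector was replaced by a NELL2 construct, and for Fn1 knockdown the control siRNA was replaced by siRNA targeting Fn1. Every culture thus received a plasmid and 30 nM siRNA with a lipid reagent, and the share of cells that took them up is not given in the sources used here. There was 1 library per condition, so each difference compares 2 single libraries and has no replicate check, and the spread between cultures is unknown. The RNA-seq experiment addressed which signals lie downstream of NELL2 and Fn1.

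NF-kB dimers are held in the cytoplasm by IkB proteins. Signals from receptors for TNF, interleukin-1 or microbial products activate the IKK kinase complex, which marks IkB for destruction and frees the dimers to enter the nucleus. Many genes of the pathway's own brakes are NF-kB targets, so their transcripts are widely used as readouts of activity. In bone, NF-kB drives osteoclast formation and is known to restrain osteoblasts.

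The promoters are shown first, since a kappaB site near the start of a gene is the sequence feature by which NF-kB acts on its own regulators. RefSeq promoter sequences (GRCm38.p6, 250 bases before to 50 bases after a start site) were present for 8 of the 10 members, with 11 start sites in all, and none was listed for Nfkb1 or Relb. The kappaB consensus was searched on both strands as GGG, a purine, any base, A or T, a pair of pyrimidines and CC. At least 1 match was present for 5 of the 8 members, against 5.14% of the 27025 genes with such a promoter. In the stretches below, read 5′ to 3′ on the gene's strand, capitals mark the bases covered by a match. The stretch of Nfkbia (chr12:55492648-55492706, minus strand) ends at the base before the start site, and its match is on the opposite strand. Rel (chr11:23771021-23771091, minus strand) and Nfkb2 (chr19:46304689-46304717, plus strand) hold overlapping matches on both strands. The match of Nfkbie (chr17:45555564-45555633, plus strand) is on the gene's strand and that of Tnfaip3 (chr10:19015411-19015452, minus strand) on the opposite strand.
Nfkbia: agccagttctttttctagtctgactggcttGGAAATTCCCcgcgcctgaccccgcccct
Rel: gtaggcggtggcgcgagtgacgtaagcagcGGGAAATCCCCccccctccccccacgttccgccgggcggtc
Nfkb2: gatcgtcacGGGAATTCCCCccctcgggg
Nfkbie: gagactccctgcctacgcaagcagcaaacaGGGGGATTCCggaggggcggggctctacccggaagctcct
Tnfaip3: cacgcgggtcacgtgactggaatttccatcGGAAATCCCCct

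Further matches not printed were present in Nfkb2 and Tnfaip3. No match to these letters lay in the windows of Rela, Nfkbib and Birc3. A match is a string of letters and not a measured binding site.

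**Figure D1:**
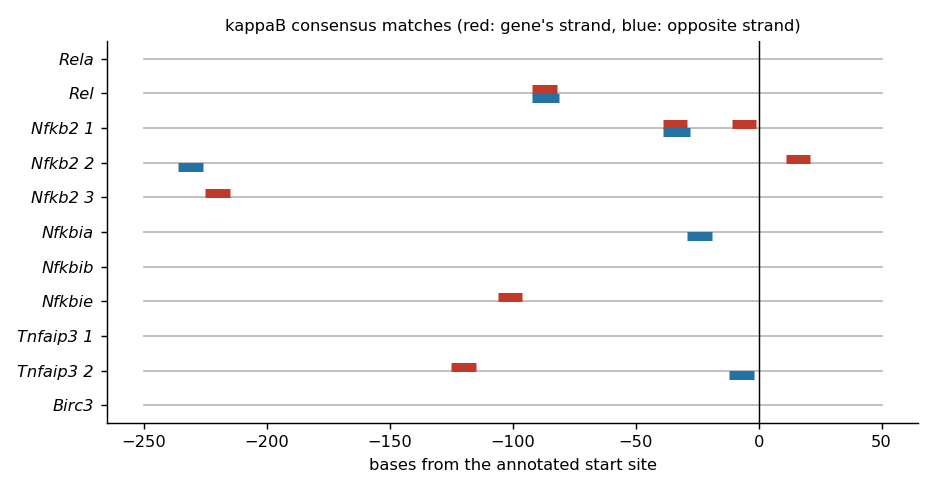
Matches to the kappaB consensus in the 11 RefSeq promoter windows of the members, by distance in bases from the annotated start site (vertical line); red bars are matches on the gene's strand and blue bars on the opposite strand, and numbers after a name distinguish start sites of 1 gene. Nfkbia has its match just before the start site, and the rows of Rela, Nfkbib and Birc3 are empty.

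The libraries were checked against their labels. Taken as control, NELL2 overexpression and Fn1 knockdown, Nell2 was at 0.640, 326 and 1.06 FPKM and Fn1 at 2802, 2489 and 137 FPKM. In that order, depth was estimated as 23000000, 23700000 and 24200000 fragments. All 13 stromal markers reached 1 FPKM in the control library, including Col1a1 at 1494 FPKM. Lymphoid, endothelial and epithelial markers summed to at most 1.91 FPKM per list. The 7 myeloid markers with a single row summed to 18.7, 20.8 and 10.47 FPKM in the same order, mostly from Lyz2 and Cd68, whereas Ptprc, the general marker of blood cells, was at 0.0633 FPKM or less. Lyz2 carried most of this sum. Of the 7 markers, 4 were highest in the NELL2 library, whereas Cd68, Tyrobp and Fcgr1 were highest in the control, and 6 were lowest after Fn1 knockdown. Their part in the results was not tested. In bulk RNA, fewer cells of a type and less RNA per cell cannot be told apart.

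In control ST2 cells the most abundant subunit transcripts were Rela, Nfkb1 and Nfkb2. Rela, which encodes the main transactivating subunit, was highest at 33.0 FPKM, above 83.1% of the 12733 genes that reached 1 FPKM in any library. Nfkb1 and Nfkb2 encode precursors that are processed to DNA-binding subunits and that also retain NF-kB in the cytoplasm through ankyrin repeats, and they were at 22.1 and 16.5 FPKM. Relb, the partner of the Nfkb2 product in the noncanonical branch, was at 4.93 FPKM. Rel, the subunit best known from lymphocytes, was lowest at 1.79 FPKM. Of the summed 78.3 FPKM of the 5 subunits, Rela made up 42.2%, Nfkb1 28.2%, Nfkb2 21.1%, Relb 6.29% and Rel 2.29%. Among the inhibitors, Nfkbia was at 21.1 FPKM, Nfkbib at 15.1 FPKM and Nfkbie at 2.18 FPKM, so that Nfkbia held 55.1% of their sum. Birc3 was at 8.39 FPKM and Tnfaip3 at 5.15 FPKM. The order of close neighbours such as Nfkb1 and Nfkbia, or Tnfaip3 and Relb, cannot be judged without replicates. Comparisons and shares between genes also depend on the transcript lengths used for FPKM, which are not given in the sources used here.

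**Figure D2:**
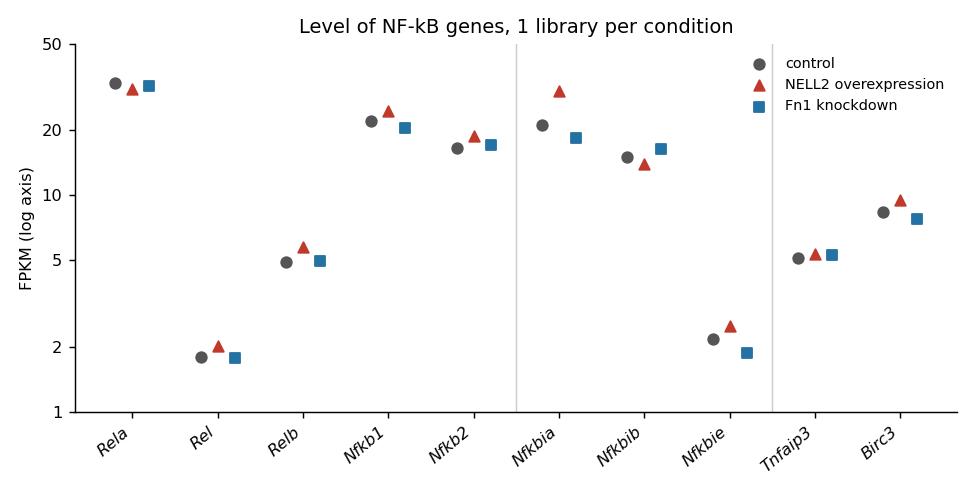
FPKM (log axis) of the 10 members in the control, NELL2 and Fn1 knockdown libraries, with 1 point per library and vertical lines between subunits, inhibitors and ubiquitin enzymes. Nfkbia shows the widest separation, at 30.4 FPKM in the NELL2 library against 21.1 FPKM for control cells and 18.4 FPKM after knockdown.

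Nfkbia was the member farthest from the control with NELL2 overexpression. It encodes IkB alpha, the inhibitor that is rebuilt fastest after NF-kB is activated. The gene lies on GRCm38 chromosome 12, 55489410 to 55492647, minus strand, and none of its exons overlaps another annotated gene. Transcript levels were 21.1 FPKM (control), 30.4 FPKM (NELL2) and 18.4 FPKM (knockdown). The NELL2 overexpression library was highest and the Fn1 knockdown library lowest. From transcript length and depth these values correspond to about 766, 1138 and 702 fragments. The NELL2 library was 1.44-fold above the control (95% interval, 1.31 to 1.58), a log2 ratio of 0.50 on the log2(FPKM + 1) scale that was above that of 97.7% of genes. After Fn1 knockdown the level was 0.870 of the control (0.784 to 0.965), a log2 ratio of -0.19 that was above 22.1% of genes. These intervals, given in parentheses after each ratio below, come from the estimated fragment numbers and cover counting error only, and a ratio whose interval leaves out 1 is said to exceed counting error. Set directly against each other, the NELL2 library held 1.65-fold (1.5 to 1.82) the Nfkbia level of the Fn1 knockdown library.

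The other IkB genes were closer to the control with NELL2 overexpression, and Nfkbib lay in the other direction. Nfkbib, which encodes IkB beta, lies on chromosome 7 (28758251 to 28767512, minus strand), and its level was 15.1 FPKM in control cells, 14.0 FPKM under NELL2 and 16.3 FPKM under Fn1 siRNA. It was the only member that was lowest with NELL2 overexpression and highest after Fn1 knockdown, the reverse of Nfkbia. Its ratios to the control, 0.931 (0.811 to 1.07) and 1.08 (0.949 to 1.24), had counting intervals that included 1, whereas the NELL2 library directly against the Fn1 knockdown library was at 0.859 (0.752 to 0.981). Exons of Nfkbib overlap those of Sirt2 and Ccer2 on the opposite strand, and Sirt2 was at 27.9, 28.9 and 27.3 FPKM, so reads could have been divided between these genes if strand was not used. Nfkbie, which encodes IkB epsilon, lies on chromosome 17 (45555703 to 45563169, plus strand) and was at 2.18, 2.50 and 1.87 FPKM in the control, NELL2 and Fn1 knockdown libraries. It followed the order of Nfkbia, but from only about 120, 142 and 108 fragments, and neither ratio to the control, 1.15 (0.895 to 1.48) and 0.860 (0.657 to 1.12), exceeded counting error. As an FPKM ratio its level after Fn1 knockdown was slightly farther from the control than that of Nfkbia (0.870).

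The ratios of the Rel family subunits to the control lay between 0.930 and 1.17. Rela (chromosome 19, 5637483 to 5648130, plus strand) was at 33.0, 31.0 and 31.9 FPKM in the control, NELL2 and Fn1 knockdown libraries. It was the only subunit that was highest in the control, and its ratios of 0.939 (0.865 to 1.02) and 0.965 (0.889 to 1.05) lay within counting error of 1. Nfkb1 (chromosome 3, 135584655 to 135691547, minus strand) was at 22.1, 24.5 and 20.5 FPKM in the same order, highest with NELL2 and lowest after knockdown. The ratios to the control were 1.11 (1.04 to 1.19) with NELL2 and 0.930 (0.866 to 0.9998) after Fn1 knockdown, the latter interval ending just short of 1. Nfkb2 (chromosome 19, 46304320 to 46312385, plus strand) was at 16.5, 18.8 and 17.0 FPKM, with ratios of 1.14 (1.05 to 1.23) and 1.03 (0.952 to 1.12). Its exons overlap those of Psd, which was at 0.816 FPKM or less, and of AC114539.1, for which no value was used here, both on the opposite strand. Relb (chromosome 7, 19606217 to 19629438, minus strand) was at 4.93, 5.75 and 4.97 FPKM, and Rel (chromosome 11, 23736847 to 23770970, minus strand) was at 1.79, 2.01 and 1.76 FPKM. Both were highest with NELL2 overexpression, by 1.17-fold (0.982 to 1.38) for Relb and 1.12-fold (0.962 to 1.31) for Rel, which did not exceed counting error.

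Of the ubiquitin enzymes, Tnfaip3 hardly differed between libraries. This gene (chromosome 10, 19000910 to 19015657, minus strand) encodes an enzyme that edits ubiquitin chains on signalling adaptors and ends NF-kB signalling, and it was at 5.15, 5.34 and 5.30 FPKM in the control, NELL2 and Fn1 knockdown libraries. Its ratio with NELL2 was 1.04 (0.879 to 1.22), and 1 of its 2 promoter windows holds kappaB matches. Birc3 (chromosome 9, 7848699 to 7873186, minus strand), which encodes a ubiquitin ligase of the TNF receptor complex, was at 8.39, 9.48 and 7.78 FPKM. It was highest with NELL2, by 1.13-fold (0.973 to 1.31), and lowest after knockdown, at 0.927 (0.794 to 1.08) of the control.

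**Figure D3:**
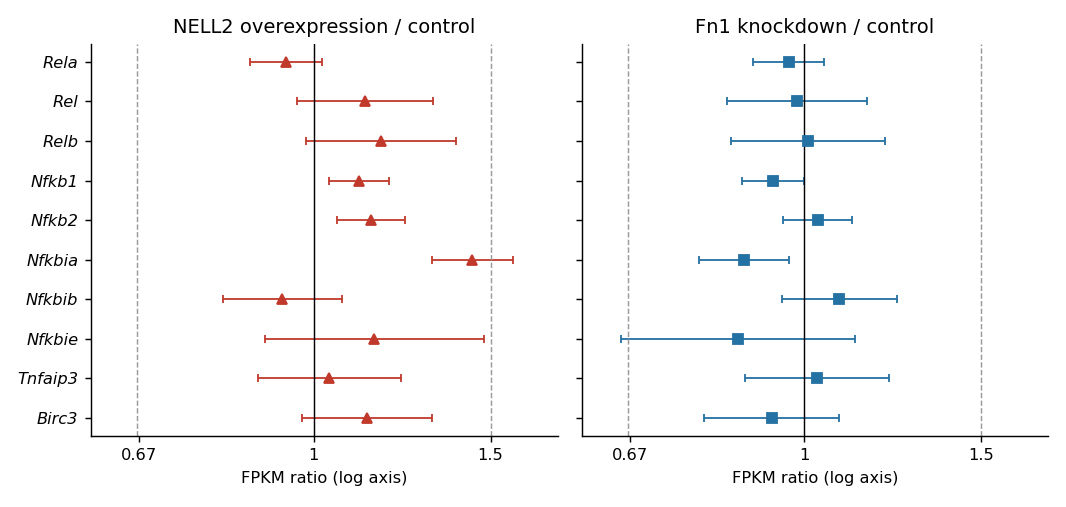
FPKM ratio to the control (log axis) of each member with NELL2 overexpression (left) and after Fn1 knockdown (right), 1 library each; bars are 95% intervals from estimated fragment numbers and cover counting error only, the solid line is a ratio of 1 and dashed lines are 1.5-fold changes. Nfkbia with NELL2 overexpression, at 1.44, is farthest from 1, and no point reaches 1.5-fold.

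As a group, the members were higher with NELL2 overexpression by small amounts. Called genes are those with a difference of at least 1 in log2(FPKM + 1) and at least 1 FPKM in either library, and 2-fold and 1.5-fold refer to this scale, which understates low genes. None of the 10 members was called with NELL2 overexpression, where 0.652% of 12572 genes were called, and none passed 1.5-fold, as 2.59% of genes did. Members higher than the control by any amount numbered 8 of 10, against 52.3% of all genes, and the exceptions were Rela and Nfkbib. The median log2 ratio of the members was 0.14, ranging from -0.097 to 0.50, and that of all genes was 0.0072. With a pseudocount of 5 in place of 1 the members' median was 0.088. The difference exceeded counting error in the higher direction for 3 members, Nfkb1, Nfkb2 and Nfkbia, against 14.6% of the 12256 genes with an annotated length. It did so in the lower direction for none, against 12.5%. Counting intervals narrow as fragments increase, and these shares over all genes, here and below, are not matched for expression level.

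After Fn1 knockdown the members were spread on both sides of the control. None was called at 2-fold, as 1.23% of 12574 genes were, and none passed 1.5-fold, as 6.24% of genes did. Of the 10 members, 4 were higher (Nfkb2, Relb, Nfkbib and Tnfaip3), against 49.5% of all genes, although Relb turned to -0.0055 when libraries were set to a common total without mitochondrial genes, Nell2 and Fn1. Their median log2 ratio was -0.033, ranging from -0.19 for Nfkbia to 0.11 for Nfkbib, beside -0.0028 for all genes. Nfkb1 and Nfkbia were lower beyond counting error, a share of 2 in 10 that was near the 23.7% of all genes, and no member was higher, against 23.7% as well. For Nfkb1 this rested on the transcript length assumed.

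Both comparisons used the same control library, so the order across the 3 libraries is given as a description. The NELL2 overexpression library was highest for 8 of 10 members, against 31.8% of all genes, and the Fn1 knockdown library was lowest for 5 of 10 (Nfkb1, Rel, Nfkbia, Nfkbie and Birc3), against 40.4%. This order was not particular to the members. Of the 13 stromal markers, 9 were highest in the NELL2 library and 8 lowest after Fn1 knockdown. The NELL2 library set directly against the Fn1 knockdown library, which leaves out the control, was higher beyond counting error for 5 members (Nfkb1, Nfkb2, Nfkbia, Nfkbie and Birc3), where 24.4% of 12278 genes were, and lower for Nfkbib, where 22.2% were. For Birc3, exceeding counting error rested on the transcript length assumed. The direct comparison of the NELL2 and Fn1 knockdown libraries was added after the values had been seen.

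**Figure D4:**
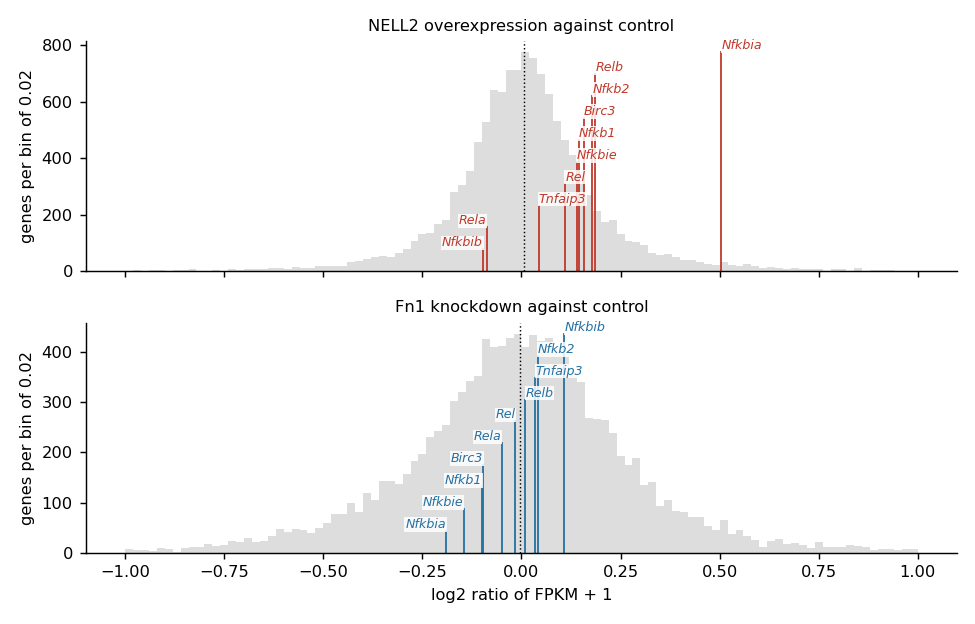
Log2 ratios of FPKM + 1 for all genes that reached 1 FPKM in either library (grey, genes per bin of 0.02; genes beyond 1 in size are not drawn) with the members as labelled vertical lines of arbitrary height and the median of all genes as a dotted line. With NELL2 overexpression (top) 8 members lie to the right of 0 and Nfkbia at 0.50, whereas after Fn1 knockdown (bottom) 4 lie to the right and 6 to the left.

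Ratios within a library do not depend on how that library was scaled. Their size does depend on the transcript lengths used for FPKM, which are not given in the sources used here. The ratio of Nfkbia to Rela was 0.640, 0.981 and 0.577 for control, NELL2 and knockdown. In the NELL2 library the FPKM of the inhibitor transcript thus nearly equalled that of Rela, given the lengths used. Rela, the shared denominator, was itself lowest in the NELL2 library. Nfkb1 to Rela was 0.669, 0.791 and 0.645, Nfkb2 to Rela was 0.4997, 0.607 and 0.534, and Birc3 to Rela was 0.254, 0.306 and 0.244. Relb to Rela was 0.149, 0.185 and 0.156, Rel to Rela was 0.0543, 0.0650 and 0.0553, and Nfkbie to Rela was 0.0659, 0.0807 and 0.0587. The ratio of Tnfaip3 to Rela differed less, at 0.156, 0.172 and 0.167, and that of Nfkbib was lowest in the NELL2 library, at 0.456, 0.452 and 0.512. Rela made up 37.8% of the summed subunits with NELL2 overexpression, compared with 42.2% in the control and 41.8% after Fn1 knockdown. Nfkbia made up 64.8% of the summed IkB transcripts with NELL2 overexpression and 50.3% after Fn1 knockdown, against 55.1% in the control. The sum of the 3 IkB transcripts over that of the 5 subunits was 0.490, 0.572 and 0.480 in the control, NELL2 and Fn1 knockdown libraries.

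The members were then divided by promoter. With NELL2 overexpression, all 5 members with a kappaB match were higher than the control (median log2 ratio 0.14, ranging from Tnfaip3 at 0.043 to Nfkbia at 0.50). Of the 3 without a match in the window, Birc3 was higher and Rela and Nfkbib were lower. Nfkb1 and Relb, with no promoter listed, were left out of this division, and both were higher (0.14 and 0.19). Across all genes the shares were close, with 52.7% of 564 genes with a match and 51.98% of 8465 without one higher. After Fn1 knockdown, 2 of the 5 members with a match were higher (Nfkb2 and Tnfaip3), and 1 of the 3 without (Nfkbib). Across all genes, 44.4% of 559 with a match and 49.5% of 8480 without were higher.

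The rest of the pathway is described by 6 lists ordered from ligand to target, each without the members and limited to genes reaching 1 FPKM in at least 1 library. Of 11 ligands, 3 reached 1 FPKM, namely Tnfsf11 (RANKL, which drives osteoclast formation), Tnfsf12 and Il33, whereas Tnf was at 0.199 FPKM or less and Il1b at 0.153 FPKM or less. All 3 were higher with NELL2 overexpression (median log2 ratio 0.15), as 52.3% of all genes were, and lower after Fn1 knockdown (median -0.18), where 49.5% of all genes were higher. None passed 1.5-fold on the log2(FPKM + 1) scale, beside 2.59% and 6.24% of all genes, although the plain FPKM ratio of Il33 after knockdown was 0.565. Tnfsf11 was at 4.66, 5.26 and 3.99 FPKM for control, NELL2 and knockdown, Tnfsf12 at 3.14, 3.60 and 2.78 FPKM, and Il33 at 1.48, 1.63 and 0.838 FPKM.

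Of 14 receptors, 10 reached 1 FPKM. With NELL2 overexpression 9 of these were higher, all but Ltbr, beside 52.3% of all genes, and after Fn1 knockdown 7 were higher, all but Tlr4, Il1r1 and Tlr2, beside 49.5%. The median log2 ratio was 0.17 in both comparisons. Il1rl1, the receptor for interleukin-33, was at 100.5, 135 and 184 FPKM for control, NELL2 and knockdown. On the log2(FPKM + 1) scale it was farthest from the control in both comparisons. It was also the only receptor past 1.5-fold after knockdown, which 6.24% of all genes passed. None passed it under NELL2, beside 2.59%. As a plain FPKM ratio under NELL2, Tlr2 was farther, at 1.45 against 1.34 for Il1rl1. Tlr2, a receptor for bacterial lipoproteins, was at 2.07, 3.01 and 2.05 FPKM, and Tlr3, a receptor for double-stranded RNA, at 16.5, 21.3 and 20.01 FPKM. Tnfrsf12a, the receptor for Tnfsf12, was at 179, 189 and 221 FPKM, and Il1rap, a coreceptor of interleukin-1 and interleukin-33 receptors, at 8.18, 9.52 and 10.1 FPKM.

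Adaptors and kinases had medians within 0.053 of 0, with larger ratios for single low genes after Fn1 knockdown. For the 16 adaptors at 1 FPKM or more of 17, the medians were 0.053 with NELL2 overexpression (13 higher, beside 52.3% of all genes) and 0.020 after Fn1 knockdown (9 higher, beside 49.5%), and none passed 1.5-fold on the log2(FPKM + 1) scale, beside 2.59% and 6.24% of all genes. Myd88, the adaptor of interleukin-1 and Toll-like receptors, was at 15.1, 18.6 and 18.8 FPKM. After knockdown, Traf3, a brake on the noncanonical branch, went from 4.35 to 6.65 FPKM, Traf6 from 3.47 to 5.35 FPKM and Tirap, which bridges Myd88 to receptors, from 6.50 to 9.68 FPKM. As plain FPKM ratios these were 1.53, 1.54 and 1.49, above that of any member. Sharpin, of the linear ubiquitin ligase complex, was at 12.2, 14.4 and 11.4 FPKM. The 11 kinases had a median of 0.050 with NELL2 overexpression, where 8 were higher, beside 52.3% of all genes. After Fn1 knockdown their median was -0.051 and 1 was higher (Map3k8), beside 49.5% of all genes, while the other 10 were lower. Of the IKK subunits, Chuk was at 23.3, 20.7 and 22.7 FPKM in the control, NELL2 and Fn1 knockdown libraries, Ikbkb at 10.45, 10.6 and 10.1 FPKM and Ikbkg at 16.5, 15.3 and 16.2 FPKM. The kinase-related genes farthest from the control after knockdown were Tab3 (3.28 to 2.08 FPKM, a ratio of 0.636), Ikbke (8.03 to 5.92 FPKM) and Map3k7, which encodes the kinase activated by Tab proteins (22.95 to 19.7 FPKM). Tab1, which encodes a partner of this kinase, was highest with NELL2, at 4.89 against 4.21 FPKM.

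With NELL2 overexpression, some genes of the list of other inhibitors were farther from the control than any member. This list also holds nuclear IkB proteins (Nfkbiz and Bcl3), so it is not made up of brakes alone. Of 20, 18 reached 1 FPKM, and with NELL2 overexpression 4 were higher and 1 lower by 1.5-fold or more, where 2.59% of genes passed this threshold in either direction, and 12 of the 18 were higher by any amount, beside 52.3% of all genes, with a list median of 0.067. The 4 were Nfkbiz, a nuclear IkB protein that helps induce secondary targets (5.06 to 9.21 FPKM), Zc3h12a, an RNase that degrades inflammatory mRNAs (4.25 to 7.10 FPKM), Irak3, a kinase-dead relative of the IRAK kinases (1.36 to 2.56 FPKM, and 2.18 FPKM after Fn1 knockdown), and Bcl3, another nuclear IkB protein (3.99 to 6.50 FPKM). Nkiras1, which slows IkB turnover, was lower (5.33 to 3.17 FPKM, and 3.76 FPKM after Fn1 knockdown). After Fn1 knockdown none of the 18 passed 1.5-fold on the log2(FPKM + 1) scale, beside 6.24% of all genes, 8 were higher, beside 49.5%, and the median was -0.031. Irak3 and Nkiras1 thus lay on the same side of the shared control in both libraries, and their plain FPKM ratios after knockdown were 1.61 and 0.707. Cyld, a deubiquitinase that opposes NF-kB signalling, was lowest of them relative to the control, at 11.4, 11.98 and 7.43 FPKM for control, NELL2 and knockdown.

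Known NF-kB target genes were the list with the highest median with NELL2 overexpression. Of 35, 25 reached 1 FPKM and 24 of these were higher, against 52.3% of all genes, with a median log2 ratio of 0.38. Of the 25, 10 were higher by 1.5-fold, which 2.59% of genes passed in either direction, and 3 were called (Saa3, Mmp3 and Cxcl10), as 0.652% of genes were. This list was written with earlier results of these libraries known, so its direction is not independent evidence. Mmp3, a matrix metalloproteinase, was at 3.22, 8.99 and 3.55 FPKM, and Cxcl10, a chemokine, at 46.7, 102 and 36.4 FPKM. Saa3, an acute phase gene, was at 2.36, 15.6 and 0.525 FPKM. After Fn1 knockdown 15 of the 25 were higher, against 49.5% of all genes, and the median was 0.072. In this comparison 2 passed 1.5-fold in the higher direction (Bcl2l1 and Cflar) and 2 in the lower (Saa3 and Ccl5), where 6.24% of genes passed it in either direction. Bcl2l1, a survival gene, was called higher (8.24 to 19.9 FPKM) and Saa3 called lower, where 1.23% of genes were called. Cflar, an inhibitor of caspase activation, was at 9.57, 9.93 and 14.9 FPKM. Ccl5, a chemokine, was at 119, 196 and 77.6 FPKM. The difference of Nfkbia with NELL2 overexpression, a log2 ratio of 0.50, was above the median of these targets, and those of Tnfaip3 (0.043) and Birc3 (0.16) were below it.

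**Figure D5:**
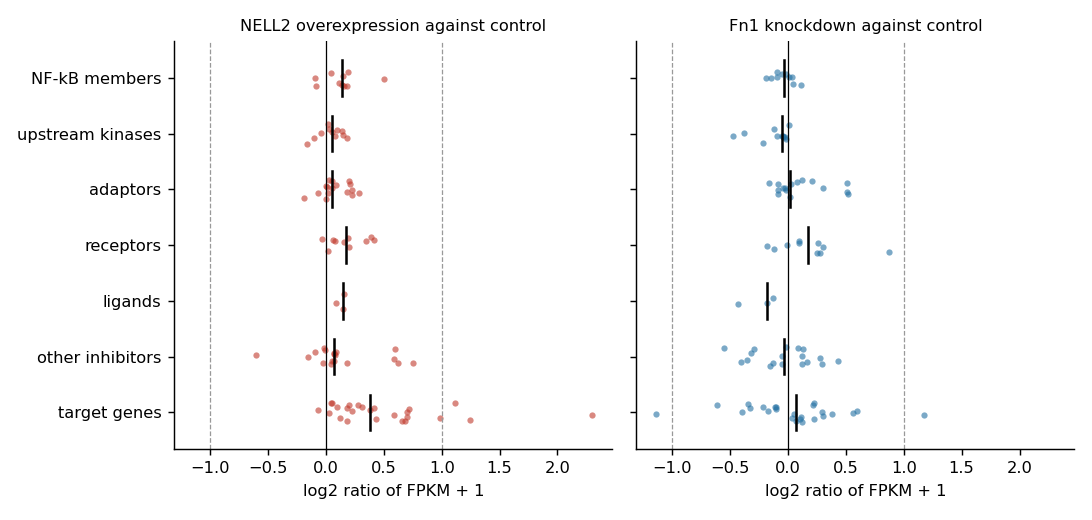
Log2 ratio of FPKM + 1 against the control for the members and the 6 pathway lists, with 1 point per gene that reached 1 FPKM, black bars at the list medians and dashed lines at 2-fold; vertical scatter is for legibility only. With NELL2 overexpression (left) the target genes have a median of 0.38 and the members 0.14, and after Fn1 knockdown (right) all list medians lie between -0.18 and 0.17.

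Genes with a pattern most like that of Nfkbia were sought by the distance between pairs of log2 ratios among 8932 genes that reached 5 FPKM in at least 1 library, so that Pde4b entered through the NELL2 library alone. Over 3 libraries this likeness says little, and 10 genes lay within a distance of 0.1. The 5 nearest were Plpp5 (12.1, 17.5 and 10.6 FPKM), Pde4b (4.70, 7.08 and 3.899 FPKM), Tmbim1 (19.2, 28.5 and 16.4 FPKM), Rabepk (8.98, 13.6 and 7.81 FPKM) and Il18bp (7.01, 10.4 and 6.25 FPKM), at distances of 0.019 to 0.048.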

How the data were processed

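Messenger RNA of 3 ST2 cultures was selected by poly(A) and sequenced as 150 bp paired ends by the authors, who mapped reads to mouse transcripts with HISAT2 (GRCm38 per the submitters' processing notes). The deposited values are FPKM per gene name, computed by the authors. The methods name a strand alignment and filtering step and a normalization meant for read counts. Whether counting used strand, how that normalization bears on the deposited FPKM, the program that computed it and the annotation are not given in the sources used here.

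The log2(FPKM + 1) difference from the control was computed over the whole table (Python 3.11.15, pandas 2.3.3, numpy 2.4.6) and checked on simulated data. With 1 library per condition no test was made and no p-value computed. FPKM + 1 understates differences of low genes. Depth was read from the low values of single-transcript genes of at least 600 bases. Between 24.7% and 25.4% of these values lay within 0.02 of a whole fragment, so fragment numbers, and the intervals on ratios (exact binomial, scipy 1.17.1), are approximate. Lengths were medians of coding transcripts in GENCODE M21 (GRCm38).

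The members and lists were chosen with earlier results of these data known. Named list genes were the 3 farthest from the control in each list and comparison, and any called gene. Tnf, Il1b, Il1r1, Tlr4, Ltbr, Map3k8, Ikbkb, Ikbkg, Bcl3, Cflar and Irak3 with NELL2, the counting-error shares and the division by promoter were added after values were seen. Likeness used the 5 nearest genes. Itgam, on 2 rows, was left out. Alternatives are listed in the closing section.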

Additional observations from a re-analysis of the deposited data

How the results depend on the processing

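No replicate existed, so none of these settings measures the spread between cultures. Under pseudocounts of 0.1 and 5, no filter, 5 FPKM or more, and both rescalings, no member was called at 2-fold in either comparison, nor was any at 1.5-fold. Each member's log2 ratio moved by less than its counting error and kept its sign in these settings and in the plain FPKM ratio, except that Relb after Fn1 knockdown passed to -0.0055 on a common total without mitochondrial genes, Nell2 and Fn1. The log2 ratio of Nfkbia with NELL2 overexpression ranged from 0.44 to 0.52. The members' median ranged from 0.088 (pseudocount of 5) to 0.17 (plain FPKM ratio) with NELL2 overexpression and from -0.050 (5 FPKM or more) to -0.026 (pseudocount of 5) after Fn1 knockdown. With 5 FPKM or more in any library, which leaves 8 members, 6 were highest with NELL2 overexpression and 3 lowest after Fn1 knockdown. Relb (4.93, 5.75 and 4.97 FPKM) passed this filter through the NELL2 library alone, so its place among the 6 was fixed by the filter. The median after Fn1 knockdown at this setting left out Relb as well as Rel and Nfkbie. On the common total 6 of 10 were lowest after Fn1 knockdown.

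Counts over all genes depended on low values and on the threshold. For NELL2 overexpression and Fn1 knockdown, a pseudocount of 0.1 gave 178 and 358 called genes, a pseudocount of 5 gave 26 and 50, and a 1.5-fold threshold gave 325 and 784. With 5 FPKM or more, 47 genes were called for NELL2 overexpression. With the median length of all transcripts, chosen after seeing the data, 1 member (Nfkbia, 0.770 to 0.983) was lower beyond counting error after Fn1 knockdown, and Nfkb1 was not (0.863 to 1.003). Birc3 was then no longer higher in the NELL2 than in the Fn1 knockdown library beyond counting error (0.965 to 1.54). No paired analysis was possible because each condition had 1 library, which also prevents leaving any out.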

Other observations

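Matches to the kappaB consensus were also counted in the promoters of the other pathway lists, as a description. A match was present for 6 of 14 other inhibitors (42.9%) and 9 of 26 target genes (34.6%) with a RefSeq promoter. It was present for 3 of 12 receptors, 1 of 9 ligands, 1 of 8 kinases and 1 of 15 adaptors, the last (6.67%) near the 5.14% of all genes.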
